A study of Homo sapiens with 9 samples.

Results

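Keratins 8, 18, 7, 19 and 10, the keratin-binding protein epiplakin and the epithelial surface proteins E-cadherin, EPCAM and CD24 were followed across HEK293T cells in which the chromatin protein BRD1 was raised or lowered. Every probe set with the single symbol KRT8, KRT7, KRT18, KRT19, KRT10, EPPK1, CDH1, EPCAM or CD24 was taken, which gave 21 of 49386 probe sets and 9 of 18239 genes. KRT8, EPPK1 and CD24 were picked on their high level in BRD1 expressing cells, so their excess in cells expressing BRD1-S or BRD1-L is a description and not a finding. The other genes were added by function, to show whether epithelial genes moved together or singly.

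HEK293T is an embryonic kidney line that carries the SV40 large T antigen. Expression was read on Affymetrix U219 arrays, 1 each for untreated cells, for cells expressing tagged BRD1-S (the short isoform) and for cells expressing tagged BRD1-L (the long isoform). The labels give stable or episomal expression for both expressing lines. BRD1 siRNA was set against mock transfection in 3 pairs of arrays, named here Qiagen, Dharmacon 1 and Dharmacon 2 after the kit and number in the labels. The labels call these controls mock where the methods describe scrambled siRNA, and each expressing line was a single line on a single array. BRD1 itself, at a mean log2 intensity of 7.61 in untreated cells, read 9.27 in BRD1-S cells and 9.30 with BRD1-L, while its siRNA minus mock difference was -0.75, -0.84 and -0.998 log2 units in the pairs Qiagen, Dharmacon 1 and Dharmacon 2.

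Keratins are the intermediate filaments of epithelia and assemble only as pairs of a type II and a type I chain. KRT8 with KRT18 is the founding pair of simple epithelia and also appears in embryonic and many cultured cells, whereas KRT7 and KRT19 mark ductal and other simple epithelia. Epiplakin binds keratin bundles, E-cadherin joins neighbouring epithelial cells, and EPCAM and CD24 are surface glycoproteins of many epithelial and progenitor cells.

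The RefSeq start regions of KRT8 and CD24 (GRCh38.p14, 250 bases before and 50 after the start, both on the minus strand) are printed because these genes had the highest differences in BRD1-L cells. They lie at chr12:52926420-52926719 for KRT8, the only start of that gene in the table, and at chr6:106973990-106974289 for the CD24 start shown, which is 1 of 3 in the table. Other starts of KRT8, if any, were not looked at. Capitals mark matches on either strand to CAGGTG, the E2-box of zinc finger repressors such as SNAI2, and to GGGCGG, the GC-box.
KRT8: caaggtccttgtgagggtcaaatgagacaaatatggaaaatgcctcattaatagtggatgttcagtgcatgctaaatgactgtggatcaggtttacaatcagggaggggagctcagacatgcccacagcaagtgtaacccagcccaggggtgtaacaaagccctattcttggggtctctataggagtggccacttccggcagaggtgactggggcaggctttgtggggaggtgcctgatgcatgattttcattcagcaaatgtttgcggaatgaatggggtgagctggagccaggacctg
CD24: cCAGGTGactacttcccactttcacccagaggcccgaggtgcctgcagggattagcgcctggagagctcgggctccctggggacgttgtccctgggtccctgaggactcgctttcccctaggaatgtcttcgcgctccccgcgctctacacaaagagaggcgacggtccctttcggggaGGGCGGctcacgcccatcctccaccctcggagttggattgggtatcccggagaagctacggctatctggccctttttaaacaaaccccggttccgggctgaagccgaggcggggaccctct
The KRT8 window, with 50.7% G and C, held neither motif, nor TATAAA, nor the AP-1 motif TGACTCA, nor the grainyhead motif AACCGGTT. The CD24 window shown, with 63.3% G and C, held 1 CAGGTG and 1 GGGCGG, and none of the other 3 motifs. At the CD24 starts not shown no CAGGTG was found, and GGGCGG was found at only 1 of them. Of 35116 RefSeq start regions of this length, 20.6% held CAGGTG, 45% GGGCGG, 11.5% TATAAA, 4.95% TGACTCA and 0.13% AACCGGTT, so either common motif is frequent at any start. A match is a description of letters and no evidence that a factor binds there.

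The values are log2 intensities, with array means from 6.25 to 6.30 and a median of 5.47 over all values. Probe sets of olfactory receptors, genes that a kidney line is not known to use, had a median of 3.64 and a 95th percentile of 4.22, and this percentile served as a guide to what was read above background. Of the 21 probe sets, 18 were above it on at least 1 array and 3 on none. Of 12 epithelial markers only 6 genes were above it, namely KRT8, KRT18, CDH1, EPCAM, CD24 and CLDN4, while KRT7, KRT19, CLDN3, CLDN7, ESRP1 and GRHL2 were not. All 6 markers of the HEK293 lineage were above it, as were 5 of 8 mesenchymal markers, and 0 of 7 leukocyte and 0 of 8 hepatocyte genes were. VIM, the mesenchymal filament protein, lay between 12.91 and 13.50 on every array. The mock array Dharmacon 2 stood apart from the other mocks, with 6.57% and 7.16% of all probe sets differing by more than 1.5-fold from mock Qiagen and mock Dharmacon 1, which differed from each other in 0.524%.

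KRT8, the type II chain, was higher in BRD1-L cells than on any other array. Its mean over 8 probe sets was 7.53 in BRD1-L cells, 5.50 in BRD1-S cells and 4.87 in untreated cells. The mock arrays read 5.27, 5.45 and 5.53 and the BRD1 siRNA arrays 4.43, 4.68 and 5.36, in the order Qiagen, Dharmacon 1 and Dharmacon 2. BRD1-S cells thus lay within the range of the mocks, and BRD1-L cells lay above every other array by 2.00 log2 units, or 4.01-fold. Against untreated cells the differences were 2.66 in BRD1-L and 0.63 in BRD1-S cells, and against the mean of the mocks, 5.42 ± 0.13 (SD, n = 3), they were 2.12 and 0.08. In a culture read in bulk, more expressing cells and more RNA per cell cannot be told apart.

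**Figure D1:**
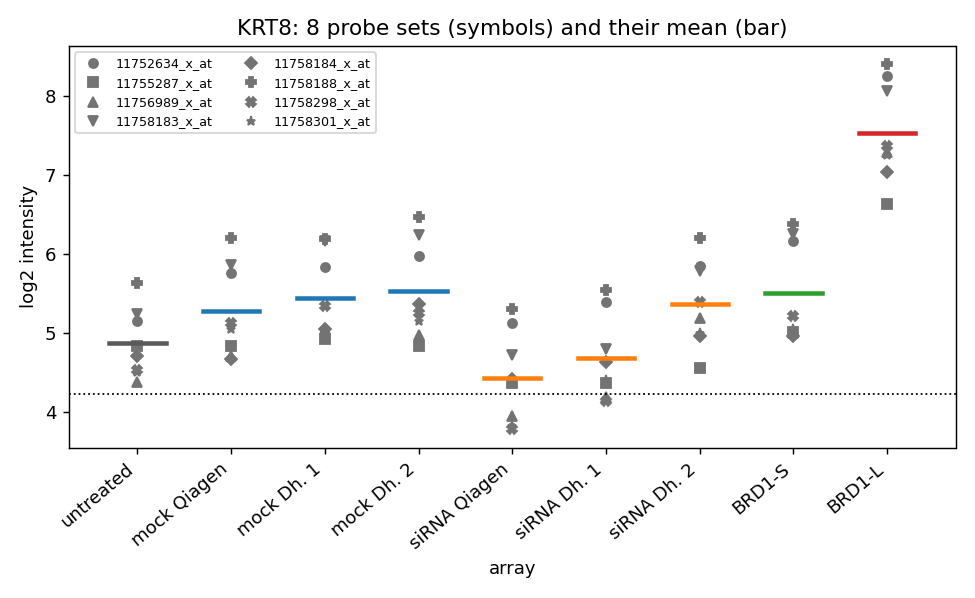
Log2 intensity (y axis) of the 8 KRT8 probe sets (grey symbols) on each of the 9 arrays (x axis), with their mean as a coloured bar (grey untreated, blue mock, orange BRD1 siRNA, green BRD1-S, red BRD1-L cells; Dh. is Dharmacon) and the 95th percentile of olfactory receptor probe sets, 4.22, as a dotted line. Every probe set was highest in BRD1-L cells, while the means of the siRNA arrays Qiagen and Dharmacon 1 lay below those of all mocks.

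All 8 KRT8 probe sets had BRD1-L as the highest of the 9 arrays, with a lead over the next array of 1.62 to 2.10 log2 units. Their levels ran from 6.63 to 8.40 in BRD1-L cells, from 4.96 to 6.38 in BRD1-S cells and from 4.38 to 5.62 in untreated cells. BRD1-L minus untreated ranged over the probe sets from 1.80 for 11755287_x_at to 3.09 for 11752634_x_at. All 8 carry the _x_at suffix, by which the maker marks probes that may also match other transcripts, and RefSeq lists 52 KRT8 pseudogene symbols. Which of these transcripts the probes read was not tested, and since the probe sets share their gene they are not independent readings.

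The siRNA arrays were not used to pick KRT8, and there its mean was below its own mock in every pair, by -0.84, -0.77 and -0.17 log2 units in Qiagen, Dharmacon 1 and Dharmacon 2. Of the 8 probe sets, 8, 8 and 6 were lower with BRD1 siRNA in those pairs, and 6 were lower in all 3. On siRNA Qiagen 3 of the 8 probe sets, and on siRNA Dharmacon 1 2 of the 8, read below the olfactory guide level, so their differences have no exact size. Between mock and siRNA arrays the levels overlapped, because siRNA Dharmacon 2 lay above mock Qiagen. In the limma fit over all 49386 probe sets the 8 differences ranged from -0.99 to -0.36, and the smallest adjusted p among them was 0.847. For the mean of KRT8 the fit gave -0.59 (SE 0.19) with an adjusted p of 0.869 over all genes, which does not pass the threshold of 0.05. Without siRNA Dharmacon 2 the KRT8 mean differed by -0.82 (SE 0.07), still with an adjusted limma p of 0.325. The difference was smaller, at -0.43, without siRNA Dharmacon 1 and at -0.47 without either Qiagen array. It was -0.65 without mock Dharmacon 1 and -0.60 without mock Dharmacon 2.

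KRT18, the type I partner of KRT8, ordered the arrays almost as KRT8 did, over a narrower span. Only the 3 lowest, untreated and the siRNA arrays Qiagen and Dharmacon 1, changed places. Its 2 probe sets averaged 10.01 in BRD1-L cells, 9.60 in BRD1-S cells and 9.42 in untreated cells. The mocks were at 9.53, 9.57 and 9.67, and the siRNA arrays at 9.43, 9.40 and 9.54. BRD1-L cells were again the highest array, by 0.34 log2 units, while BRD1-S cells lay within the mocks. The difference from untreated was 0.60 in BRD1-L cells, close to the 1.5-fold threshold of the methods (0.58 on the log2 scale), and 0.42 against the mean of the mocks. Each siRNA array was below its mock, by -0.10, -0.17 and -0.13, and the limma difference of -0.13 (SE 0.08) had an adjusted p of 0.869. Both probe sets are of the _x_at kind, and RefSeq lists 68 KRT18 pseudogene symbols.

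KRT8 and KRT18 followed each other over the 9 arrays with a Pearson correlation of 0.977, and of 0.897 over the 8 arrays without BRD1-L. These arrays share their untreated, mock and siRNA libraries with every other gene, so the value describes 9 arrays and no more. KRT10, a type I chain of differentiating epidermis, had correlations with KRT8 of 0.720 over 9 and 0.399 over 8 arrays.

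KRT10 was read by 1 probe set and varied little. It stood at 9.36 in BRD1-L, 9.25 in BRD1-S and 9.00 in untreated cells, at 9.16, 9.07 and 8.95 in the mocks and at 9.07, 8.82 and 9.02 with siRNA. Its highest arrays were those of the expressing cells, yet the BRD1-L minus untreated difference was 0.36, below 1.5-fold. KRT7 and KRT19 were read at the level of olfactory receptors throughout, from 3.56 to 3.70 for KRT7 and from 3.44 to 3.69 for KRT19. Neither of these ductal keratins gave a reading above the guide level on any array, BRD1-L cells included. Since each rests on 1 probe set, a transcript which that probe set misses would go unread.

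Of the further keratins, 3 of 22 measured type I and 2 of 19 measured type II genes were above the olfactory level on some array. Beside KRT10 these were the hair keratins KRT32 and KRT33A and the type II chains KRT4 and KRT6C. Their BRD1-L minus untreated differences were -0.03, -0.06, -0.14 and -0.12, and none of them was past 1.5-fold in either expressing line. Among keratins above the guide level, the means of KRT8 and KRT18 alone passed 1.5-fold from untreated in BRD1-L cells, and KRT8 alone in BRD1-S cells. KRT8 was picked for its high level there. Against the mean of the mocks KRT8 in BRD1-L cells was past 1.5-fold, at 2.12. KRT18 there, at 0.42, and KRT8 in BRD1-S cells, at 0.08, were not.

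**Figure D2:**
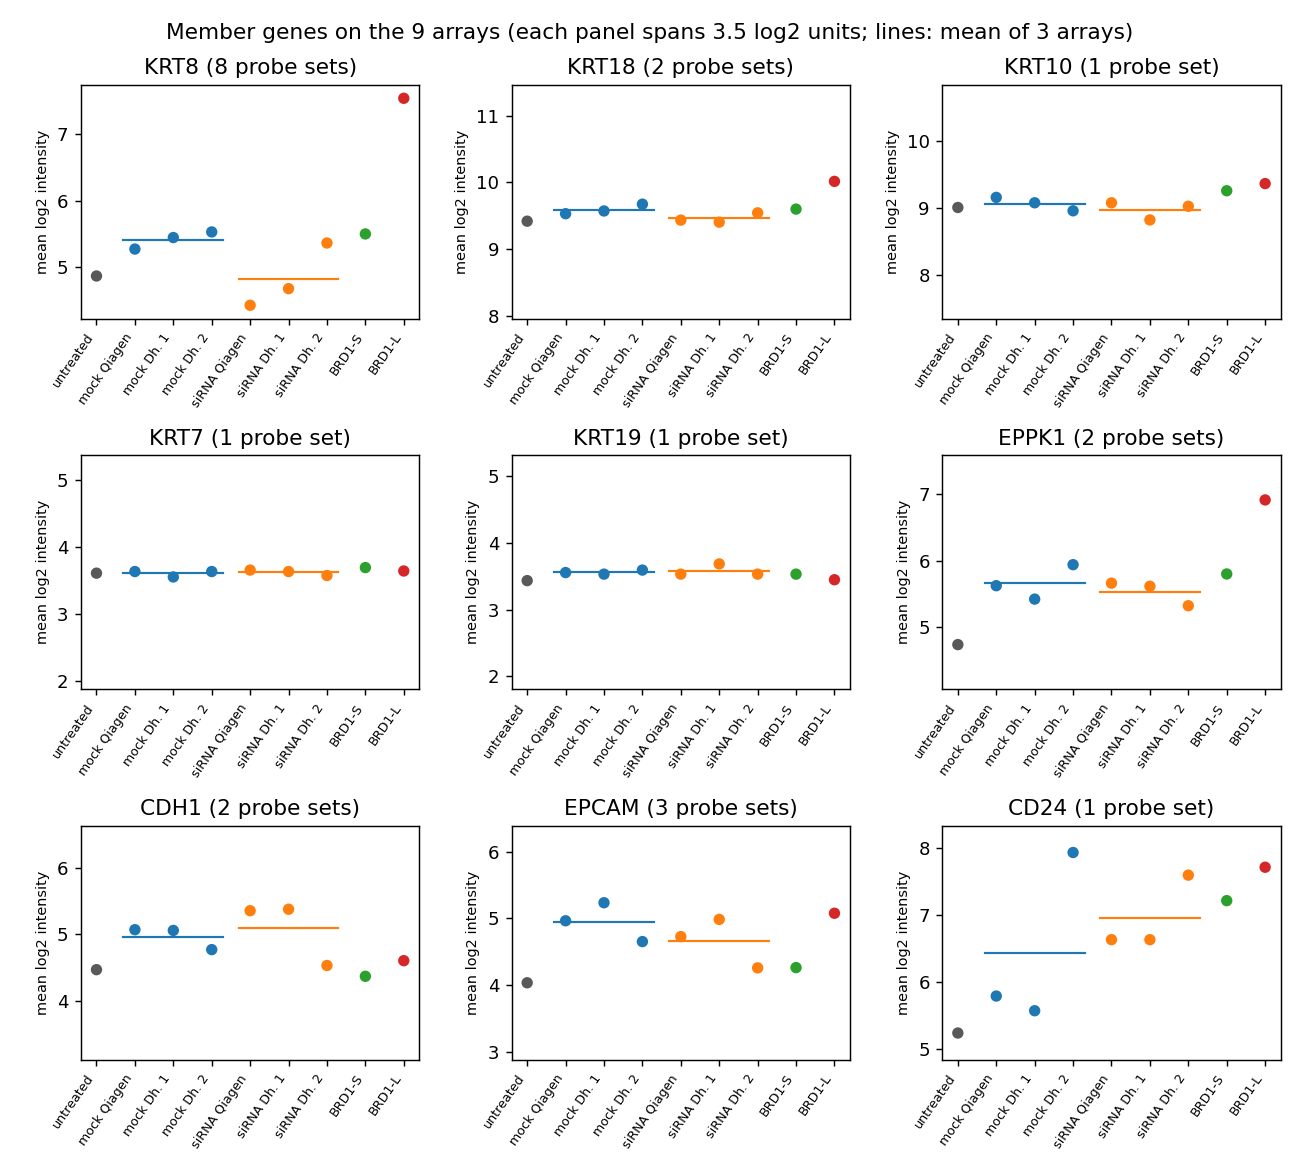
Mean log2 intensity (y axis, 3.5 log2 units in each panel) of the 9 genes on the 9 arrays (x axis; Dh. is Dharmacon), 1 point per array, with a line at the mean of the 3 mock and of the 3 BRD1 siRNA arrays. KRT7 and KRT19 stay near 3.6, KRT8 and EPPK1 are highest in BRD1-L cells, and CD24 is highest on mock Dharmacon 2.

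EPPK1, which codes for the plakin epiplakin, was also highest in BRD1-L cells, but its low array was untreated. The mean of its 2 probe sets was 6.91 in BRD1-L, 5.80 in BRD1-S and 4.74 in untreated cells. The mocks read 5.62, 5.42 and 5.94, and the siRNA arrays 5.66, 5.62 and 5.32. All 6 transfected arrays lay above untreated, and BRD1-S cells lay among the mocks. The difference from untreated was 2.17 in BRD1-L and 1.06 in BRD1-S cells. Against the mean of the mocks, 5.66 ± 0.26 (SD, n = 3), it was 1.25 and 0.14, so the BRD1-S value lay within the spread of the mocks. The pairs gave 0.04, 0.19 and -0.61 in Qiagen, Dharmacon 1 and Dharmacon 2, with no shared direction and an adjusted limma p of 0.941 for the mean.

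The other plakins, which link filaments to junctions and to each other, stayed close to untreated cells. Of 7 plakin genes 6 were above the olfactory level. Among them EPPK1, which was picked for its high level, was the only gene past 1.5-fold from untreated in BRD1-L or BRD1-S cells. Against the mean of the mocks it was past 1.5-fold in BRD1-L cells, at 1.25, but not in BRD1-S cells, at 0.14. DSP, the desmosomal plakin that anchors keratins, read 10.09 in untreated and 10.52 in BRD1-L cells, and PLEC, which links filaments to hemidesmosomes, 7.91 and 8.04. MACF1, a linker of actin and microtubules, differed by 0.25 in BRD1-L cells, and EVPL, a plakin of cornified epithelium, by 0.08.

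CDH1, coding for E-cadherin, was not high in BRD1 expressing cells. Its 2 probe sets disagreed in level, since 11716905_a_at stayed at the olfactory level, from 3.53 to 3.78, and only 11716906_a_at was read above it. That probe set stood at 5.27 in untreated, 5.15 with BRD1-S and 5.68 with BRD1-L. It read 6.56, 6.45 and 5.86 in the mocks and 6.97, 6.98 and 5.40 with siRNA. The arrays Qiagen and Dharmacon 1 were thus high with and without siRNA, and BRD1-S cells were the lowest of all. BRD1-L minus untreated was 0.41 for this probe set, whereas BRD1-L minus the mean of the mocks was -0.61, past 1.5-fold the other way. With siRNA it differed by 0.40, 0.53 and -0.46 in Qiagen, Dharmacon 1 and Dharmacon 2, and the limma difference of the CDH1 mean was 0.12 with an adjusted p of 0.961. The CDH1 difference turned to -0.10 without siRNA Dharmacon 1 and was 0.39 without siRNA Dharmacon 2, 0.23 without mock Dharmacon 1, 0.06 without mock Dharmacon 2 and 0.04 without either Qiagen array.

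EPCAM, an adhesion molecule of epithelial and progenitor cells, was not read above the olfactory guide level in untreated cells on any of its 3 probe sets, so differences from untreated have no exact size for this gene. The mean of the 3 was 4.04 there, 4.26 with BRD1-S and 5.08 with BRD1-L. The mocks read 4.96, 5.23 and 4.65, and the siRNA arrays 4.73, 4.98 and 4.26. BRD1-L cells lay within the range of the mocks, and mock Dharmacon 1 was the highest array. The measured means of BRD1-L and untreated cells lay 1.04 log2 units apart. Against the mean of the mocks, 4.95 ± 0.29 (SD, n = 3), BRD1-L cells were at 0.13 and BRD1-S cells at -0.69. The mean was below its mock in each pair, by -0.24, -0.25 and -0.39, but the probe set 11745651_a_at was not, at 0.05, 0.04 and -0.17. The limma difference of the EPCAM mean, -0.29 (SE 0.23), had an adjusted p of 0.877. It was -0.08 without siRNA Dharmacon 2, -0.12 without mock Dharmacon 1, -0.45 without mock Dharmacon 2 and -0.49 without siRNA Dharmacon 1. CDH1 and EPCAM had a correlation of 0.661 over the 9 arrays and of 0.815 without BRD1-L, while KRT8 had -0.462 with CDH1 and 0.295 with EPCAM over the 9.

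CD24, a small glycosylphosphatidylinositol-anchored surface protein, was high in both expressing lines and on both Dharmacon 2 arrays. Its 1 probe set read 7.72 in BRD1-L, 7.22 in BRD1-S and 5.23 in untreated cells. The mocks were at 5.79, 5.57 and 7.94, and the siRNA arrays at 6.63, 6.63 and 7.60. The highest array was therefore mock Dharmacon 2, above both lines that express BRD1, and untreated was the lowest. BRD1-L minus untreated was 2.48 and BRD1-S minus untreated 1.98, against 1.29 and 0.79 from the mean of the mocks, which is 6.43 ± 1.31 (SD, n = 3).

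With BRD1 siRNA CD24 differed from its mock by 0.84 and 1.06 log2 units in Qiagen and Dharmacon 1 and by -0.34 in Dharmacon 2. The limma difference was 0.52 (SE 0.62) with an adjusted p of 0.914. Leaving out mock Dharmacon 2 gave CD24 1.25 (SE 0.34) and an adjusted p of 0.216, and leaving out mock Dharmacon 1 turned it to -0.11. The direction for CD24 thus rested on which mock array was used. Over all probe sets mock Dharmacon 2 also differed more from the other mocks than these did from each other, a comparison made among the mocks alone. The part of that array in the CD24 values was not tested. The probe set is of the _s_at kind, shared by several transcripts, and RefSeq lists 5 CD24 pseudogene symbols.

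**Figure D3:**
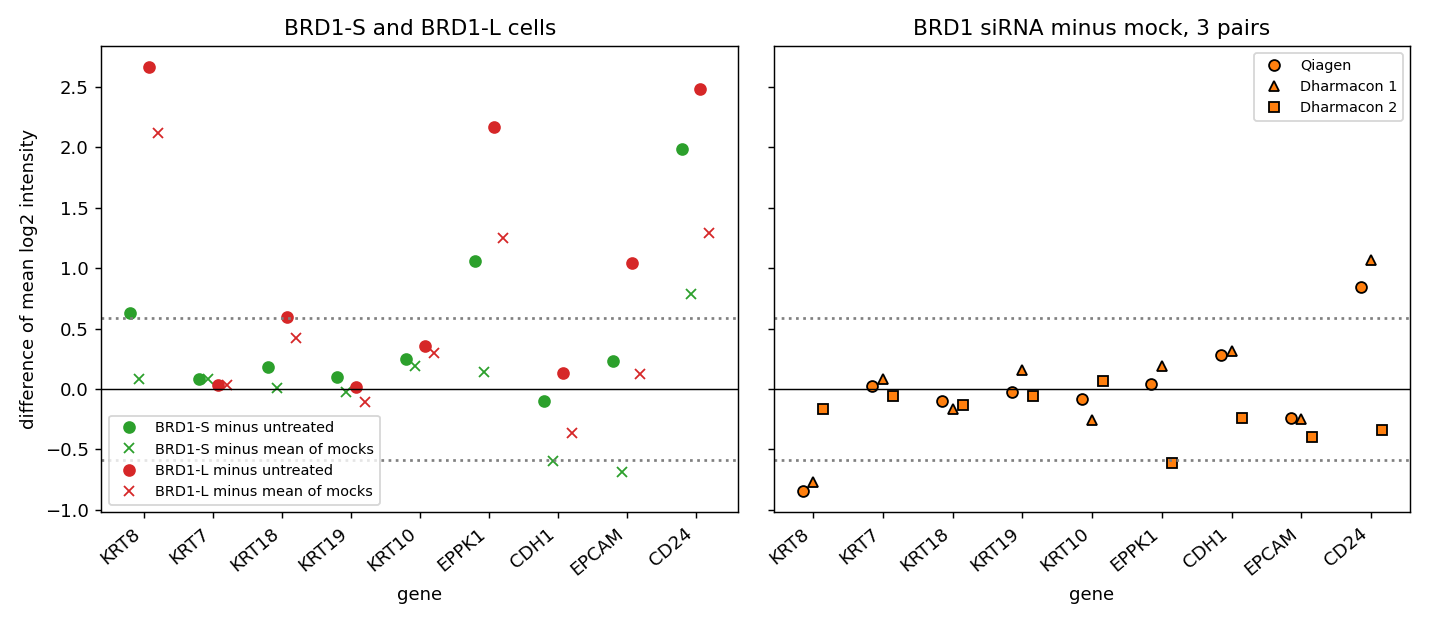
Differences of the mean log2 intensity (y axis) for the 9 genes (x axis): on the left BRD1-S (green) and BRD1-L (red) cells against untreated (circles) and against the mean of the mocks (crosses), and on the right BRD1 siRNA minus mock in the 3 pairs. Dotted lines mark 1.5-fold; only KRT8, EPPK1 and CD24 are past it in BRD1-L cells against both controls, and only KRT8, KRT18 and EPCAM are below 0 in all 3 pairs.

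Counted over probe sets at the 1.5-fold threshold, 15 of 21 were higher and 0 lower in BRD1-L than in untreated cells, where 3.67% of all probe sets were higher and 2.42% lower. For BRD1-S cells the counts were 8 and 0, with 1.12% and 0.326% of all. These contrasts served to pick genes, so nothing is read from the shares. By gene means, 5 of 9 genes were higher in BRD1-L cells (KRT8, KRT18, EPPK1, CD24 and EPCAM, the last from a reading not above the guide level) and 3 of 9 in BRD1-S cells (KRT8, EPPK1 and CD24). Over all genes the shares were 3.13% higher and 1.69% lower in BRD1-L, and 0.97% and 0.164% in BRD1-S cells. BRD1-L against BRD1-S cells had 13 probe sets higher, of KRT8, EPPK1 and EPCAM, and 0 lower, with 1.98% and 1.97% of all probe sets.

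With the mean of the mocks as control, 11 of 21 probe sets were higher in BRD1-L cells (KRT8, EPPK1 and CD24) and 1 was lower (CDH1), against 4.7% and 3.31% of all probe sets. In BRD1-S cells only CD24 was higher, with 1 probe set, and 3 probe sets of CDH1 and EPCAM were lower, against 2.18% and 1.12% of all. The comparisons with BRD1-S and BRD1-L share the untreated array, or the mocks, and cannot serve as separate readings of each other.

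In the pair Qiagen 1 probe set was higher with BRD1 siRNA (CD24) and 6 were lower (all of KRT8), where 3.71% of all probe sets were higher and 3.71% lower. In Dharmacon 1 the counts were 1 higher (CD24) and 6 lower (KRT8 and EPCAM), against 3.96% and 1.78%. In Dharmacon 2 they were 0 higher and 2 lower (EPCAM and EPPK1), against 0.616% and 0.782%. No probe set of the whole array was called by limma at an adjusted p of 0.05 (0%). An unadjusted p below 0.05 was found for 2498 of 49386, near the share that this threshold gives by itself. Among them were 6 of the 21, all of KRT8, whose probe sets are not independent readings. By gene means 1 of the 9 genes, KRT8, had an unadjusted limma p below 0.05. The interaction of siRNA with kit also called 0 of the 21, and 0 of all probe sets, with 912 below 0.05 before adjustment.

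Junction and surface genes were described with lists of their own, over genes above the olfactory level on some array, of which the arrays held 12533. Of all these genes 4.52% were past 1.5-fold higher and 2.44% lower in BRD1-L than in untreated cells, and 1.4% and 0.239% in BRD1-S cells, with medians of 0.01 and 0.00. Against the mean of the mocks the shares were 5.27% and 3.78% in BRD1-L and 2.22% and 0.949% in BRD1-S cells. The lists are short, and nothing particular to a list is read from its count.

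Of 7 such desmosome genes of 13, 2 were past 1.5-fold higher in BRD1-L than in untreated cells and 1, PERP, against the mean of the mocks. The list median was 0.12 against untreated and -0.06 against the mocks. JUP, plakoglobin, read 8.29 in untreated and 9.03 in BRD1-L cells, although mock Dharmacon 2 was higher still at 9.14. PERP, a desmosomal membrane protein, read 8.47 in untreated, 9.00 with BRD1-S and 9.22 with BRD1-L, above every mock and siRNA array (8.07 to 8.39). DSC2, a desmosomal cadherin, and PKP4, an armadillo protein of junctions, differed by 0.50 and -0.53 in BRD1-L cells.

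Of 10 adherens junction genes none was past 1.5-fold from untreated by its mean in BRD1-L or BRD1-S cells, with a median of 0.14 in BRD1-L cells. Against the mean of the mocks CDH1 was, at -0.59 in BRD1-S cells. Of 11 tight junction genes 2 were higher than untreated in BRD1-L cells, with a median of 0.10, while against the mocks 2 were higher and 1 lower, with a median of -0.03. MARVELD2, tricellulin, which seals corners where cells meet, read 3.98 in untreated, 4.88 with BRD1-S and 5.41 with BRD1-L, above every mock and siRNA array (4.11 to 4.46). Its untreated and lowest mock readings were not above the guide level, so the untreated difference has no exact size. OCLN, occludin, read 6.32 in untreated and 7.16 in BRD1-L cells, with the mocks at 5.70, 5.82 and 6.66. CGN, cingulin of the tight junction plaque, differed in BRD1-L cells by -0.43 from untreated and by -0.62 from the mean of the mocks.

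Of 9 epithelial surface and secretory genes 4 were past 1.5-fold higher in BRD1-L than in untreated cells, among them CD24, which was picked for its high level, and EPCAM. The list median against untreated was 0.47 in BRD1-L and 0.22 in BRD1-S cells. Against the mean of the mocks neither median was above 0 (-0.0039 and -0.08), 2 genes (CD24 and CD9) were higher in BRD1-L cells, and in BRD1-S cells 1 was higher (CD24) and 2 lower (SPINT2 and EPCAM). The remaining 2 of the 4 were CD9, a tetraspanin, at 7.33 in untreated and 7.98 in BRD1-L cells, and SPINT2. SPINT2, an inhibitor of surface serine proteases, read 8.91 in untreated, 7.90 with BRD1-S and 9.54 with BRD1-L, while all mock and siRNA arrays lay between 9.78 and 9.95. BRD1-S cells were thus lowest for SPINT2, by -1.01 from untreated, and BRD1-L cells lay below every mock. LSR, a protein of tricellular contacts, and ERBB3, a receptor of the EGF receptor family, differed by 0.47 and 0.27 in BRD1-L cells.

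**Figure D4:**
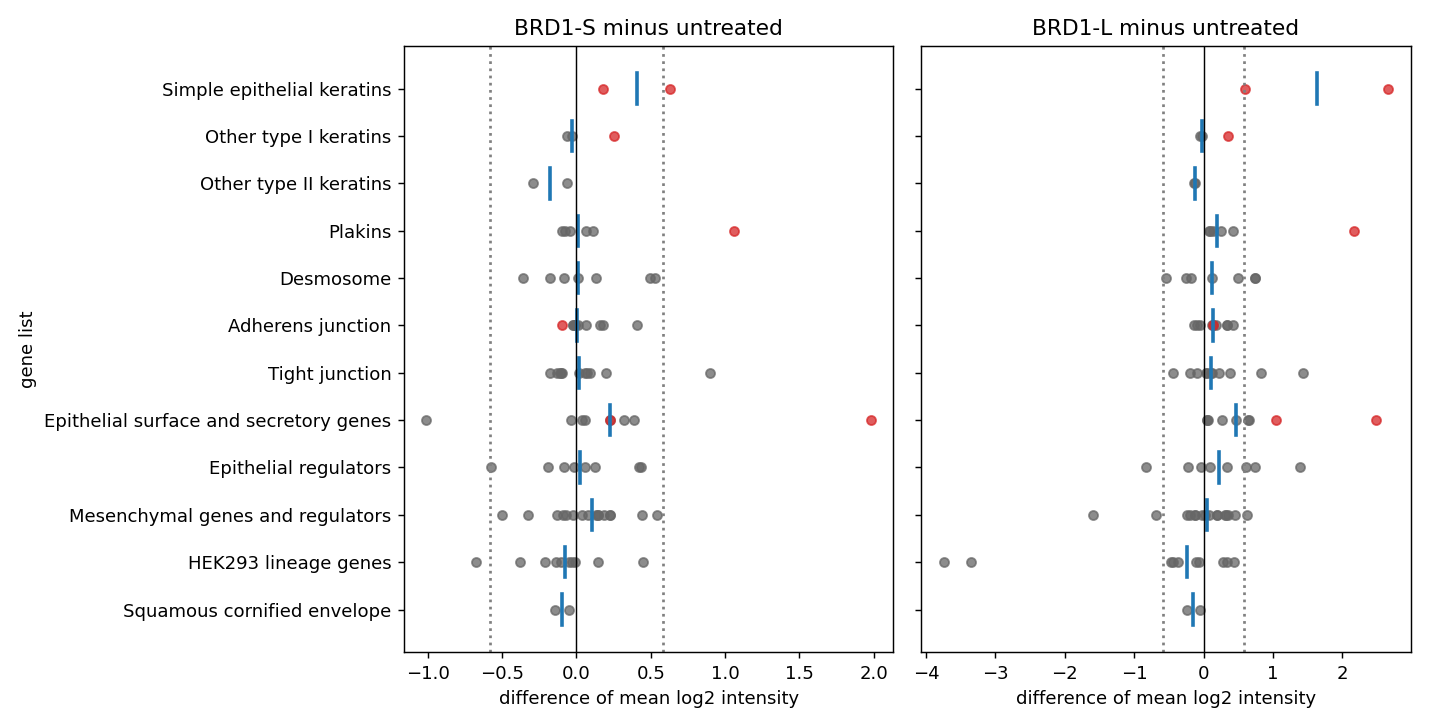
Difference of the mean log2 intensity from untreated (x axis) in BRD1-S (left) and BRD1-L cells (right) for the genes of 12 lists (y axis) read above the olfactory level on some array, with the 9 genes of the report in red, other genes in grey, list medians as blue bars and 1.5-fold as dotted lines. The x axes differ between panels. KRT8 and EPPK1 were picked for their high level in these cells, so their place above the rest of their lists is a description. Only KRT18 is shown beside KRT8 in its list. NEFL and NEFM are the lowest genes in BRD1-L cells.

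Among 8 regulators of epithelial state, 3 were higher and 1 lower in BRD1-L cells against untreated, with a median of 0.22, and the counts were 3 and 1 against the mean of the mocks, with a median of 0.18. KLF4, a zinc finger factor of epithelial differentiation, read 5.47 in untreated, 5.90 with BRD1-S and 6.87 with BRD1-L, with the mocks between 5.77 and 6.07. FOXA1, a pioneer factor of endodermal epithelia, and TFAP2C, an AP-2 factor, differed by 0.73 and 0.61 in BRD1-L cells. TFAP2C there, at 6.14, was close to mock Dharmacon 2 at 6.11 and below siRNA Dharmacon 1 at 6.30. ESRP2, which directs epithelial splicing, moved the other way, at 7.29 in untreated, 6.72 with BRD1-S and 6.46 with BRD1-L, below every mock (8.0 to 8.15). Epithelial regulators thus differed in both directions.

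Of 16 mesenchymal genes 1 (FN1) was higher and 2 (SNAI2 and TWIST2) were lower in BRD1-L than in untreated cells, with a median of 0.05. Against the mean of the mocks 1 was higher, ZEB2, a zinc finger repressor, at 0.87, and 1 lower (SNAI2). ZEB2 read 6.06 in BRD1-L and 5.86 in untreated cells, with the mocks at 5.01, 4.74 and 5.83, so it was close to untreated and to mock Dharmacon 2. SNAI2, a repressor of epithelial genes, read 10.09 in untreated, 10.22 with BRD1-S and 8.50 with BRD1-L. Its mocks stood at 10.89, 11.02 and 9.95 and its siRNA arrays at 9.86, 10.10 and 10.12, so BRD1-L cells were the lowest array. TWIST2, a helix-loop-helix repressor, FN1, fibronectin, and SPARC, a matrix protein, differed by -0.69, 0.62 and -0.02 in BRD1-L cells from untreated. FN1 there, at 6.14, was below mock Dharmacon 2 at 6.18, and TWIST2 was at -0.57 against the mean of the mocks. Of 10 HEK293 lineage genes 2 were lower in BRD1-L than in untreated cells, the neurofilament subunits NEFL, by -3.35, and NEFM, by -3.75. In BRD1-S cells NEFM alone was lower, by -0.68. Against the mean of the mocks NEFL and NEFM were lower in BRD1-L cells and NEFM in BRD1-S cells. INA was higher there, by 0.60 in BRD1-L and 0.71 in BRD1-S cells. The 2 squamous envelope genes above the guide level differed by -0.24 (SPRR3) and -0.05 (TGM1) in BRD1-L cells from untreated. In the siRNA fit 0 genes of any list passed an adjusted p of 0.05.

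The genes whose means ran most like those of KRT8, EPPK1 and CD24 over the 9 arrays were taken from all genes above the olfactory level with a range of at least 1 log2 unit. For KRT8 these were NMI (Pearson r = 0.974), SEMA3C (0.965), ZC2HC1C (0.962), CMTR2 (0.960) and BAMBI (0.959). Without BRD1-L cells the values were 0.875, 0.971, 0.828, 0.816 and 0.919. NMI, an interactor of MYC and STAT proteins, read 7.11 in BRD1-L cells and at most 5.70 elsewhere, and BAMBI, a decoy receptor for TGF-beta family ligands, 10.34 and at most 9.80.

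For EPPK1 the nearest genes were ZFP36 (0.985), NMB (0.955), ZNF85 (0.950), DMBX1 (0.940) and SGCE (0.931). ZFP36, which binds AU-rich elements of mRNAs, had the smallest drop of these without BRD1-L, to 0.976, and read 6.50 in untreated, 7.06 with BRD1-S and 7.53 with BRD1-L. For CD24 they were S100A11 (0.965), PROCR (0.953), ACSF2 (0.947), PROX1 (0.943) and YPEL3 (0.942). S100A11, a calcium-binding protein, had 0.987 without BRD1-L and read 8.88 in untreated and 9.57 in BRD1-L cells, with its highest array a mock at 9.93. No gene was among the 5 nearest of more than 1 of KRT8, EPPK1 and CD24, and the correlation of KRT8 with CD24 was 0.467, of KRT8 with EPPK1 0.787 and of EPPK1 with CD24 0.660.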

How the data were processed

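The deposited values were taken as log2 intensities from their range, 1 for each of 49386 probe sets on 9 arrays. The methods describe intensities normalized to the array mean and differences of log2 values. Whether the authors made the deposited log2 values that way, and how probes were summarised and background removed, is not given in the sources used here. Of the probe sets 45259 had a single gene symbol, 1327 several and 2800 none. A value per gene is the mean of its probe sets.

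The 3 BRD1 siRNA and 3 mock arrays entered a linear model per probe set with siRNA and kit as terms (limma 3.58.1, R 4.3.3) and Benjamini-Hochberg adjustment over all probe sets, or over all genes for gene means, at 0.05. BRD1-S, BRD1-L and untreated cells had 1 array each and no test. Their differences have no replicate check and were read at the 1.5-fold threshold of the methods. The labels do not say whether the siRNA arrays came from separate cultures, so p-values measure the spread between arrays. Deviations of arrays of the same kit and number had correlations of 0.263, 0.182 and 0.252 in the pairs Qiagen, Dharmacon 1 and Dharmacon 2. Across pairs the correlations ran from -0.324 to 0.151, the latter for siRNA Dharmacon 1 with mock Qiagen. The pair was used as a block in an alternative fit.

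All members were named, with up to 4 genes of each list that differed most from untreated among genes above the 95th percentile of 360 olfactory receptor probe sets, and the 5 genes most correlated with KRT8, EPPK1 and CD24. Defining markers, and VIM among them, were fixed with the lists. The members and lists were chosen with earlier results of these data known. Alternatives were centred arrays, quantile normalization, filters on dim probe sets, a 2-fold threshold, other controls, gene means, a variance trend, all 9 arrays in the fit, the Dharmacon arrays alone and each array left out. Python 3.11.15, numpy 2.4.6, pandas 2.3.3 and matplotlib 3.10.9 were used for the rest. No raw intensities were used, so the number of arrays limits the precision.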

Additional observations from a re-analysis of the deposited data

How the results depend on the processing

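The limma fit of BRD1 siRNA against mock called 0 probe sets, and 0 of the 21, also with centred arrays, quantile normalization, a variance trend, all 9 arrays or the Dharmacon arrays alone. It called 0 with dim probe sets left out, which kept 9 of the 21, and 0 genes, with all 9 tested, as gene means. The replicate block of the 3 pairs called 0 as well, with 3574 unadjusted p-values below 0.05 against 2498, and changed no call. Leaving out 1 array at a time gave 0 to 106 probe sets, with all 106 (101 higher, 5 lower) arising without mock Dharmacon 2 and none among the 21. Of 15 probe sets higher in BRD1-L than in untreated cells 5 genes remain when gene means are counted, and of 13 against BRD1-S cells 3 genes. The 8 higher in BRD1-S cells became 4 at 2-fold and 3 as gene means. With mocks as control, probe sets past 1.5-fold were counted in both directions together. There were 4 against the mean of the mocks, 1 higher (CD24) and 3 lower (CDH1 and EPCAM). Against mock Qiagen, Dharmacon 1 and Dharmacon 2 there were 5, 5 and 2, again in both directions, so these do not count probe sets that stayed higher. For the 9 genes no difference between siRNA and mock was called in another setting. Of these values 7 changed sign, all of KRT7, KRT19, EPPK1, CDH1 or CD24. Against untreated cells 9 values for BRD1-L and 8 for BRD1-S moved by more than the SD of the 3 mocks in another setting. In both lines KRT8, KRT18, KRT19, EPPK1, CDH1 and EPCAM moved when the mean of the mocks replaced untreated cells as control. The rest moved with centred arrays or the brightest probe set. CD24 in BRD1-L cells, at 2.48 against 1.29, did not count as moved because its mock SD was 1.31. The cause of the difference between the controls was not tested. KRT7, KRT19 and 1 CDH1 probe set on all arrays, EPCAM in untreated cells and some KRT8 probe sets on 2 siRNA arrays lay at or below the background guide, where differences have no exact size.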
